A study of Mus musculus with 75 samples.

Results

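Motile cilia genes were examined in the lungs of mice with bleomycin-induced lung injury, as 37 named genes that build, assemble, power or regulate the beating cilia of the airway. The members were chosen by gene symbol, from the regulators of ciliated cells and the components of the ciliary axoneme, and not by a threshold on their expression. All 37 were among the 55536 genes of the count table and all 37 passed the filter on low counts, which left 16221 genes for testing. Bulk RNA sequencing of the right inferior lobe had been performed in 75 male C57BL/6JRj mice, with 1 library per mouse. The BLEO-IPF mice were 12 to 14 weeks old at instillation, so their age at sampling rose with the day, and age and day cannot be told apart. The CTRL mice carry the same label of 12 to 14 weeks, and their age at sampling is not given in the sources used here. Bleomycin (BLEO), an antineoplastic agent that injures the lung epithelium, had been instilled once into the trachea of the BLEO-IPF mice, which were enrolled only if their body weight had dropped by between 5% and 17% in the first week. Counted from BLEO administration, 10 mice were examined on day 7, 12 on each of days 14, 21, 28 and 35, and 7 on day 42, and 10 further mice formed the control group (CTRL). CTRL mice are labelled as given saline in the sample names but are called untreated in the methods, and they form a single group with no time point of their own. As a model, the BLEO-IPF groups hold only mice within that range of weight loss, and the airways had been rinsed by lavage before the lobe was taken. Total counts per library were between 9240291 and 14665247. Levels are given as CPM, the counts divided by a library size with TMM scaling, and comparisons are log2 fold changes from edgeR's quasi-likelihood F test with p-values adjusted by the Benjamini-Hochberg method over all 16221 genes, called at an adjusted p under 0.05.

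Motile cilia cover the multiciliated cells of the conducting airways and move mucus towards the throat. Each cilium holds a ring of doublet microtubules with outer and inner dynein arms as motors, radial spokes and a central apparatus that coordinate the beat, and nexin-dynein links that hold the doublets together. The forkhead factor Foxj1 and the RFX factors switch on the genes of this machinery. In whole-lobe RNA, fewer ciliated cells and less RNA of these genes per cell cannot be told apart.

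In CTRL lungs every member was detected, with counts in all 75 libraries. Expressed per kilobase of exon, so that genes of different length can be compared, the highest mean level in CTRL mice was that of Tppp3 (182 CPM per kb), a tubulin-binding protein rich in ciliated cells. It was followed by Dynlrb2 (39.9 CPM per kb), a small dynein chain, and Foxj1 (34.5 CPM per kb). The axonemal dynein heavy chains lay far lower, from 5.97 CPM per kb for Dnah6 down to 0.40 CPM per kb for Dnah7b. Dnah7b has close relatives, Dnah7a and Dnah7c, and how reads shared between such copies were counted is not given in the sources used here, so its level is uncertain.

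As a set the members were lower after BLEO administration, were lowest on days 14 to 28, and lay nearer to CTRL on day 35. For each mouse, the median over the 37 members was taken after setting each gene's mean level in CTRL mice to 100%. In CTRL mice this median level ran from 83.1% to 111%, with a middle value of 103%. On day 7 the lowest, middle and highest mice were at 57.4%, 73.2% and 100.3%. Day 14 gave 27.3%, 46.4% and 71.99%, and day 21 gave 32.3%, 44.8% and 85.6%. All 12 mice on day 14 and 11 of 12 on day 21 lay below every CTRL mouse. On day 28 the range was the widest, from 17.3% through 51.4% to 95.3%, and 9 of 12 mice lay below every CTRL mouse. By day 35 the values were 61.8%, 85.8% and 122%, with 5 of 12 mice below every CTRL mouse, and on day 42 they were 52.4%, 61.3% and 81.9%, with all 7 mice below. The plot of the median level by mouse shows this course beside that of Foxj1.

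**Figure D1:**
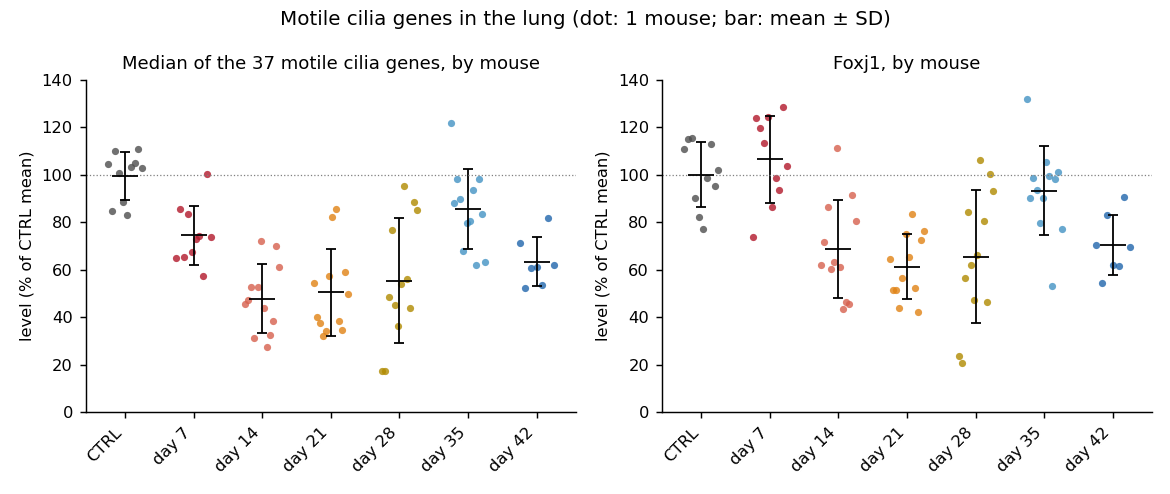
Level in each mouse as a percentage of the CTRL mean (vertical axis) by group (horizontal axis), for the median of the 37 motile cilia genes on the left and for Foxj1 on the right, with 1 dot per mouse, bars for the mean ± SD and a dotted line at 100%. The 12 mice on day 14 sit between 27.3% and 71.99% for the gene set, below all 10 CTRL mice, while Foxj1 on day 7 runs from 73.9% to 128% and overlaps CTRL.

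Between days 14 and 28 nearly all members were called lower than CTRL and none higher. On day 14, 36 of 37 members were called lower, against 29.9% of all genes tested, with a median log2 fold change of -1.06, whereas the median over all genes was 0.01. All 37 were called lower on day 21 (25.8% of all genes; median -1.004) and 36 on day 28 (19.2% of all genes; median -0.83). For 20 members on day 14 and 19 on day 21 the mean level was below 50% of CTRL. On all of days 14, 21 and 28, 35 members were called. The shares of all genes that met these rules are not given here. The lowest mean level was on day 14 for 24 members, on day 21 for 12 and on day 28 for 1. On day 14, 12 of the members had every BLEO-IPF mouse below every CTRL mouse, a separation that 6.15% of all genes showed in that direction. The exceptions to the calls were Cfap52 on day 14, a protein inside the doublet microtubules, and Mlf1 on day 28 (log2 fold change -0.39, adjusted p = 0.0839), a myeloid leukemia factor that is also abundant in ciliated cells.

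By role, all 3 outer arm heavy chains (Dnah5, Dnah9 and Dnah11) and all 6 inner arm heavy chains were called lower on each of days 14, 21 and 28. Their medians on day 14 were log2 fold changes of -0.998 and -1.23. The same held on these days for all 6 genes of the molecular ruler, the nexin-dynein link and the tether complex (Ccdc39, Ccdc40, Ccdc113, Drc1, Cfap43 and Cfap44; median on day 14 -1.09), for the 3 radial spoke head genes and for the 4 genes of the central apparatus. The assembly factors Dnaaf1 and Zmynd10, which build dynein arms in the cytoplasm before export to the cilium, had a median of -1.22 on day 14. The smallest changes on day 14 were those of both transcription factors (median -0.58) and of Cfap52, Rsph9 and Mlf1. The map of log2 fold changes shows every member in blocks by role.

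**Figure D2:**
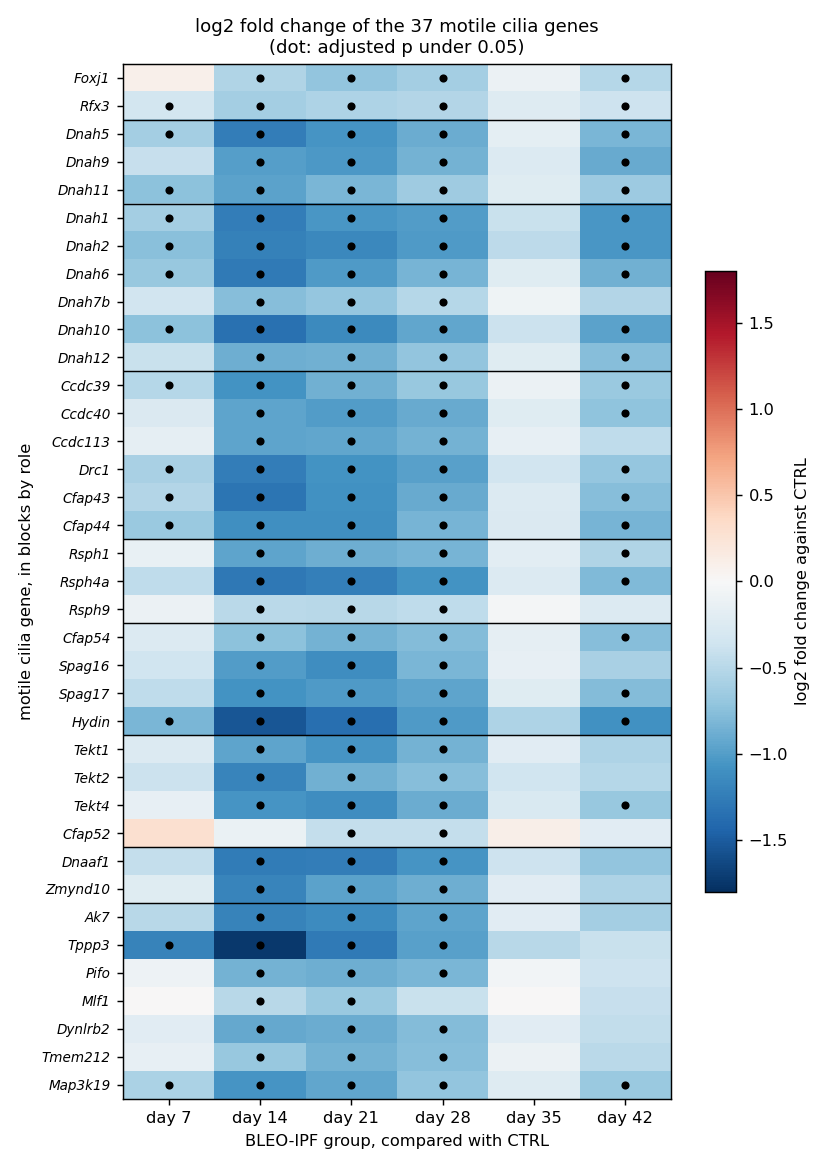
Log2 fold change against CTRL (color, blue lower and red higher) for each of the 37 motile cilia genes (rows, in blocks by role) on each day after BLEO administration (columns), with a dot where the adjusted p was under 0.05. Days 14, 21 and 28 hold 36, 37 and 36 dots, day 35 holds 0, and day 42 holds 22.

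Hydin, a giant protein of the central apparatus, had a level in CTRL mice from 22.4 to 54.3 CPM with a median of 37.5 CPM. On day 14 the 12 mice ran from 5.37 to 22.9 CPM with a median of 10.5 CPM, and only the highest of them reached the range of the CTRL mice. The mean was 34.3% of CTRL on day 14 (log2 fold change -1.54 ± 0.26 (SE), adjusted p = 3.97e-07) and 49.3% on day 28. On day 21 the log2 fold change was -1.36 (adjusted p = 7.07e-06). Rsph4a, a radial spoke head protein, lay between 25.8 and 37.5 CPM in CTRL mice with a median of 30.9 CPM, and between 4.62 and 21.8 CPM on day 14 with a median of 12.5 CPM, so that these groups did not overlap. It fell by 1.29 ± 0.21 (SE) on the log2 scale (adjusted p = 2.96e-07). On day 28 it showed the largest fall of all members (log2 fold change -1.07 ± 0.21 (SE), adjusted p = 3.06e-05).

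Among the motors, Dnah5, the outer arm heavy chain, ran from 47.2 to 93.2 CPM with a median of 75.9 CPM in CTRL mice, and from 13.2 to 52.6 CPM with a median of 32.7 CPM on day 14. Its mean was 42.4% of CTRL (log2 fold change -1.24 ± 0.25 (SE), adjusted p = 1.42e-05). Dnah6, an inner arm heavy chain, ran from 51.2 to 95.6 CPM with a median of 84.5 CPM in CTRL mice, and from 12.9 to 53.5 CPM with a median of 30.7 CPM on day 14, a change of -1.27 ± 0.23 (SE) on the log2 scale (adjusted p = 2.23e-06). For both genes the highest mice on day 14 reached just into the CTRL range.

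Cfap43, part of the tether that anchors inner dynein heads, had 38.1 to 70.7 CPM with a median of 47.9 CPM in CTRL mice, against 9.49 to 33.5 CPM with a median of 20.8 CPM on day 14. The groups were apart, and the log2 fold change was -1.31 ± 0.21 (SE) with an adjusted p of 2.8e-07. Its exons share 164 bases with Itprip on the same strand. Zmynd10 had 10.4 to 15.3 CPM with a median of 12.9 CPM in CTRL mice and 1.76 to 10.6 CPM with a median of 5.40 CPM on day 14, a fall of 1.19 ± 0.21 (SE) on the log2 scale (adjusted p = 1.7e-06). Rsph1, the spoke head gene with the highest level per kilobase, went from a median of 28.7 CPM in CTRL mice (23.6 to 33.4 CPM) to 15.1 CPM on day 14 (7.47 to 23.9 CPM), with a log2 fold change of -0.95 ± 0.18 (SE) and an adjusted p of 4.95e-06.

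Foxj1, the master regulator of motile ciliogenesis and the marker of the ciliated cell, kept more of its CTRL level than the median of the other members in most BLEO-IPF mice. This was not particular to Foxj1, since Rfx3 and Cfap52 fell less than Foxj1 on days 21 and 28. In CTRL mice it ran from 70.1 to 105 CPM with a median of 90.8 CPM, and on day 7 from 67 to 116 CPM with a median of 98.4 CPM. Those groups overlapped, and the log2 fold change was 0.09 ± 0.17 (SE) with an adjusted p of 0.687. On day 14 the range was 39.5 to 101 CPM with a median of 56.8 CPM, and on day 21 it was 38.1 to 75.7 CPM with a median of 54.96 CPM. Foxj1 was called lower on day 14 (log2 fold change -0.54 ± 0.17 (SE), adjusted p = 0.00344), on day 21 (-0.71 ± 0.17 (SE), adjusted p = 0.000252) and on day 28 (-0.61 ± 0.17 (SE), adjusted p = 0.00212). On day 42 it was called at an adjusted p of 0.0449, which was 0.0548 with total counts as the only scaling and 0.0923 with no filter on low counts.

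Within single mice, Foxj1 was set against the median of the other members, both as a share of their CTRL means. The log2 ratio was above 0 in 10 of 10 mice on day 7, in 12 of 12 on day 14, in 10 of 12 on day 21 and in 12 of 12 on day 28, compared with 4 of 10 CTRL mice. Its median was 0.47 on day 7, 0.50 on day 14 and -0.04 in CTRL mice. These ratios are a description of the libraries and were not tested.

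Rfx3, a winged helix factor that works with Foxj1, changed less than the median member. Its level in CTRL mice was 13.7 to 24.4 CPM with a median of 18.3 CPM, on day 7 it was 8.61 to 18 CPM with a median of 14.9 CPM, and on day 14 it was 8.53 to 19.6 CPM with a median of 11.3 CPM. All BLEO-IPF groups overlapped CTRL. Rfx3 was called lower on day 7 (log2 fold change -0.33 ± 0.11 (SE), adjusted p = 0.0138), on day 14 (-0.61 ± 0.11 (SE), adjusted p = 1.86e-06) and on day 42 (-0.37 ± 0.13 (SE), adjusted p = 0.0255), the last of which was 0.0584 with no filter on low counts. It was also called lower on day 21 (log2 fold change -0.56) and day 28 (-0.52).

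Tppp3 had the largest fall of all members on days 7 and 14. In CTRL mice it ran from 287 to 405 CPM with a median of 339 CPM, and on day 7 from 110 to 225 CPM with a median of 145 CPM, with no overlap. On day 14 the range was 60.5 to 177 CPM with a median of 91.6 CPM. The log2 fold changes were -1.20 ± 0.22 (SE) on day 7 (adjusted p = 1.19e-05) and -1.74 ± 0.21 (SE) on day 14 (adjusted p = 1.86e-10). On day 42 it had 165 to 301 CPM with a median of 248 CPM, 3 of the 7 mice lay within the CTRL range, and it was not called against CTRL (log2 fold change -0.40 ± 0.25 (SE), adjusted p = 0.233).

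Cfap52 ran from 9.54 to 16.8 CPM in CTRL mice with a median of 12.7 CPM, from 13.1 to 20.9 CPM on day 7 with a median of 14.6 CPM, and from 7.21 to 15.3 CPM on day 14 with a median of 11.3 CPM. Its log2 fold changes of 0.29 ± 0.15 (SE) on day 7 (adjusted p = 0.112) and -0.12 ± 0.15 (SE) on day 14 (adjusted p = 0.506) were not called. In a fit of day 7 and CTRL mice alone, Cfap52 was called higher on day 7 (adjusted p = 0.0183). It was called lower on day 21 (log2 fold change -0.43, adjusted p = 0.0115) and on day 28 (-0.44, adjusted p = 0.0146), and the call on day 28 was lost without the 2 mice that stood lowest (adjusted p = 0.1003). The plot of 4 members by mouse sets these patterns side by side.

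**Figure D3:**
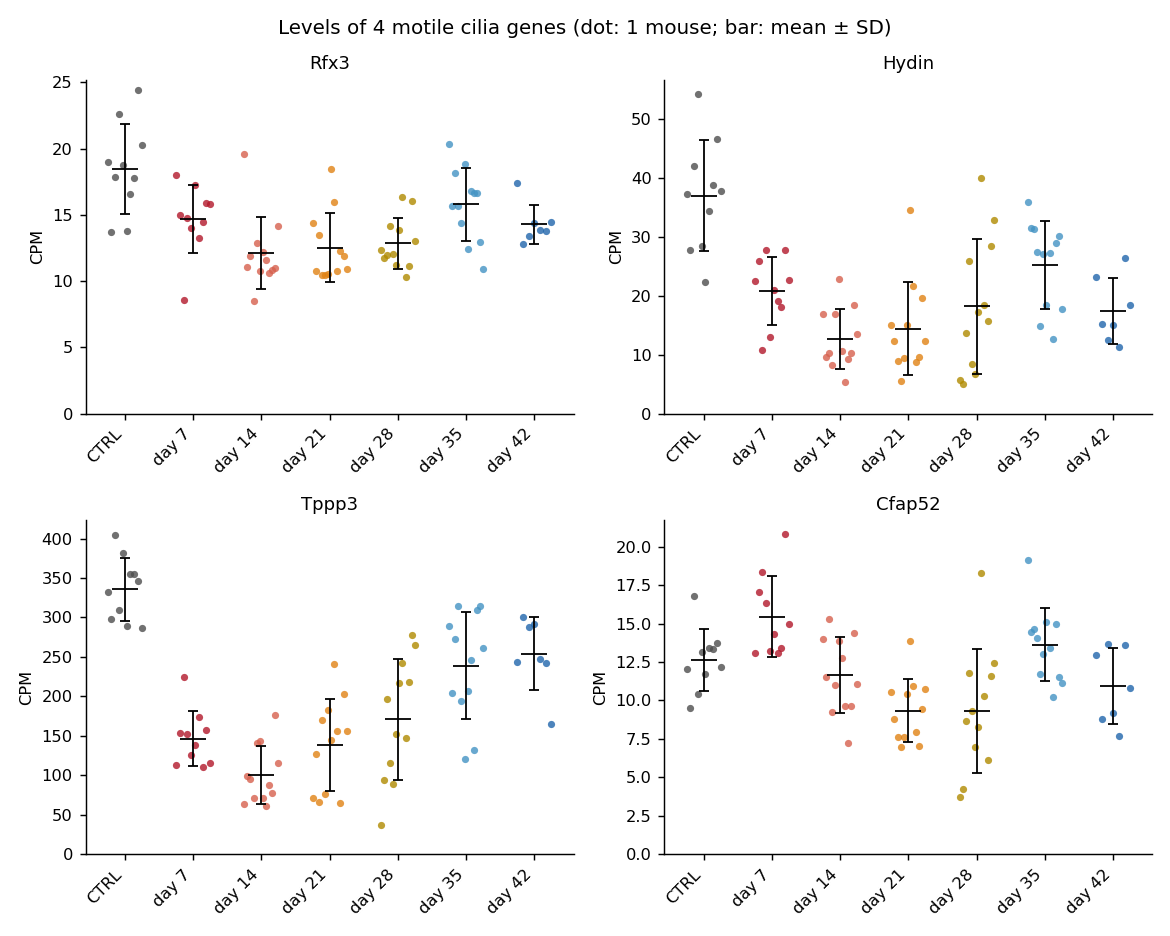
CPM (vertical axes, each from 0) of Rfx3, Hydin, Tppp3 and Cfap52 in each mouse by group (horizontal axes), with 1 dot per mouse and bars for the mean ± SD. Tppp3 on day 7 lies between 110 and 225 CPM, below all CTRL mice, while Cfap52 on day 7 lies between 13.1 and 20.9 CPM and overlaps CTRL.

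Day 7 asked which members had already moved in the first week. Of 37 members, 14 were called lower (21.0% of all genes were) and none higher, and the median log2 fold change was -0.41. They comprised Rfx3, Tppp3, Hydin, Map3k19, 4 genes of the ruler, link and tether complexes (Ccdc39, Drc1, Cfap43 and Cfap44) and 6 dynein heavy chains (Dnah1, Dnah2, Dnah5, Dnah6, Dnah10 and Dnah11). None of the 3 radial spoke head genes, of the 4 tektins and microtubule inner proteins or of the 2 assembly factors were called. The members with a log2 fold change above 0 were Cfap52, Foxj1 (0.09) and Mlf1 (0.0032). The count was 24, with 23 lower and 1 higher, in a fit of day 7 and CTRL mice alone. The share of all genes called in that fit is not given here.

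The calls on day 7 were also counted by the length of the members. Of the 12 members with more than 10 kb of exon, 8 were called lower on day 7, with a median log2 fold change of -0.61, against 6 of the 25 shorter ones with a median of -0.26. Among all genes tested, 38.7% of those over 10 kb and 19.2% of the shorter ones were called lower on that day. On day 14 this was 12 of 12 long and 24 of 25 shorter members, with medians of -1.11 and -1.06. On that day 41.1% of all long genes and 28.9% of all shorter genes were called lower. On day 42 it was 11 of 12 and 11 of 25, with medians of -0.85 and -0.56, where 24.2% of all long genes and 9.75% of all shorter genes were called lower. The long members were all the dynein heavy chains together with Rfx3, Cfap54 and Hydin, so the split by length largely overlaps with that by role. The part of gene length in these values was not tested. The scatter of fold change against exon length shows both days.

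**Figure D4:**
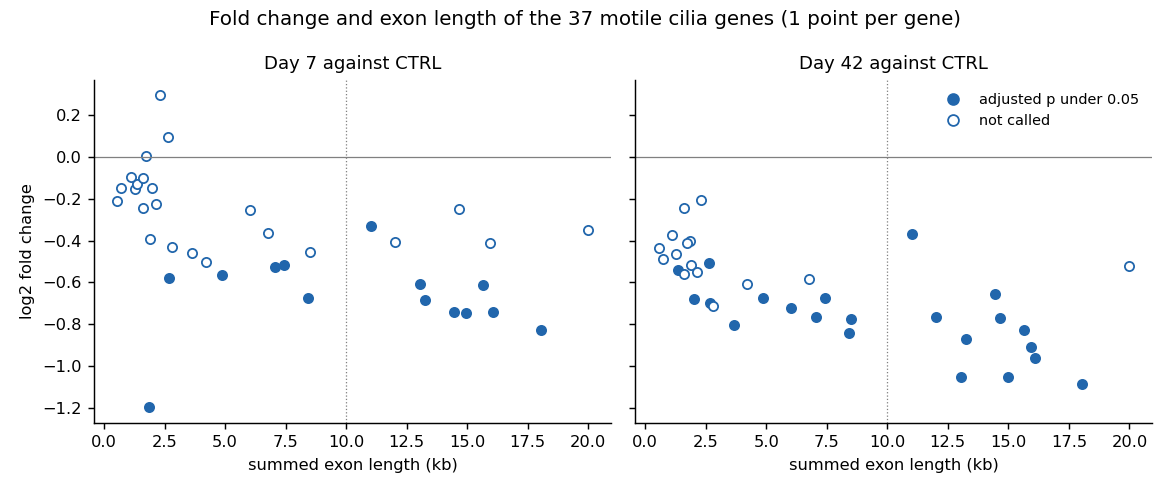
Log2 fold change against CTRL (vertical axis) and summed exon length in kb (horizontal axis) of the 37 motile cilia genes on day 7 and on day 42, with filled points for members with an adjusted p under 0.05 and a dotted line at 10 kb. On day 7 filled points make up 8 of the 12 genes to the right of the line and 6 of the 25 to its left, where Tppp3 is the lowest point at -1.20.

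From day 7 to day 14 most members fell further. Compared directly, 24 of 37 were called lower on day 14 than on day 7, when 7.55% of all genes were, and all 37 log2 fold changes were below 0 (median -0.63). The lowest was that of Zmynd10, whose mice on day 7 ran from 7.58 to 16.2 CPM with a median of 11.4 CPM (log2 fold change -0.96 ± 0.21 (SE), adjusted p = 0.00093). Foxj1 was called (-0.64 ± 0.17 (SE), adjusted p = 0.0048). In this comparison 3 of the 12 long members and 21 of the 25 shorter members were called. Among all genes, 4.15% of those over 10 kb and 7.88% of the shorter ones were called lower.

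On day 35 no member was called against CTRL, where 13.1% of all genes were called lower. The test was edgeR's, and DESeq2 also called 0, while 4 of 37 had an unadjusted p under 0.05. The median log2 fold change was -0.21, with 35 of 37 values below 0, and the median level was 86.3% of CTRL. Hydin (log2 fold change -0.55 ± 0.25 (SE), adjusted p = 0.0869) and Tppp3 (-0.49 ± 0.21 (SE), adjusted p = 0.0686) had the lowest values. A fit of day 35 and CTRL mice alone called 8, and the share of all genes called in that fit is not given here. In the fit of all groups, 1 was called without mouse 1 or mouse 11 of day 35 or without mouse 6 of CTRL.

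On day 42, 22 of 37 members were called lower than CTRL and none higher, against 11.0% of all genes, with a median log2 fold change of -0.67 and all 37 values below 0. All 3 outer arm and 5 of 6 inner arm heavy chains were among them, while 1 of the 4 tektins and inner proteins and 1 of the 7 other ciliated cell genes were. Hydin had the largest fall, with 11.3 to 26.4 CPM and a median of 15.2 CPM in the 7 mice (log2 fold change -1.09 ± 0.30 (SE), adjusted p = 0.00518), and the 2 highest of these mice lay within the CTRL range. In 13 of the 14 members that were called on day 7 a call was made again on day 42, the exception being Tppp3. Both days were set against the same CTRL mice, and the share of all genes called on both days is not given here. A fit of day 42 and CTRL mice alone called 36, and the share of all genes called in that fit is not given here.

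Days were then compared with each other, since each was first set against the same CTRL mice. Day 42 had no member called against day 35, nor any of the 16221 genes (0.0%), by edgeR or for the members by DESeq2. Of the members 17, and of all genes 957, had an unadjusted p under 0.05. The members had a median log2 fold change of -0.44, so the calls on day 42 and their absence on day 35 were not shown to differ. Day 42 was higher than day 14 for 4 members, Tppp3, Tekt2, Zmynd10 and Ak7, where 15.2% of all genes were called higher, and the median log2 fold change was 0.38. Tppp3 rose the most, to 253% of its level on day 14 (log2 fold change 1.34 ± 0.23 (SE), adjusted p = 6.88e-06). The count was 2 without mouse 3 or mouse 4 of day 42 or without mouse 8 of day 14, and it was 10, 8 and 7 without mouse 6, 11 or 12 of day 14.

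Day 35 was higher than day 28 for 9 members, where 0.808% of all genes were called higher, with all 37 log2 fold changes above 0 (median 0.60). This comparison was added after the values by day had been seen. The 9 were Rsph4a, Spag17, Pifo, Rsph1, Cfap52, Ccdc40, Ccdc113, Ak7 and Tmem212, with adjusted p between 0.0285 and 0.0482, and 36 of 37 members had an unadjusted p under 0.05. The count rested on single mice. It was 0 without mouse 1, 2, 6 or 10 of day 28 or mouse 1 or 10 of day 35, it was 1 without mouse 5 of day 28 or mouse 2 or 3 of day 35, and it was 2 without mouse 7 of day 35. It was 3 without mouse 7 of day 28, 5 without mouse 3 of day 28 or mouse 4 of day 35, and 19, 24 and 26 without mouse 12, 11 or 8 of day 28.

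Among the 12 mice on day 28, mice 1 and 2 had the lowest member levels of all 75 mice (17.3% and 17.5% of CTRL). Mouse 1 was the lowest of its group for 19 of 37 members and mouse 2 for 16. Their summed levels of 15 club and goblet cell markers, 5880 and 4823 CPM, were also the lowest of the group, while their sums of 10 general epithelial markers were 1756 and 2701 CPM within a range of 1398 to 2701 CPM. Without these 2 mice, 34 members were still called lower on day 28, with Hydin at a log2 fold change of -0.83 (adjusted p = 0.00526), and 0 were called between days 28 and 35. These 2 mice were picked by their low member levels, so leaving them out favours a smaller gap between days 28 and 35. The share of all genes called in that fit is not given here. Mouse 10 of day 28 held 1728 CPM of skeletal muscle markers, where the group's median was 5.38 CPM, and its member level was 43.7% of CTRL.

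Other genes of the motile cilium, which are not members, were also mostly called lower on days 14 to 28. Lists of 94 such genes covered further dynein arm and docking genes, assembly factors, link and spoke genes, tektins and inner proteins, and ciliated cell markers, and 89 were tested. Day 7 had 20 of these called lower, day 14 had 77, day 21 had 79, day 28 had 76, day 35 had 3 and day 42 had 43. At most 1 was called higher on any of these days. Against the shares of all genes called lower given above for each day, the 20 of 89 on day 7 lay near the 21.0% of all genes and the 3 of 89 on day 35 lay below the 13.1%. Their medians ran from -0.26 on day 7 to -0.88 on day 14 and -0.56 on day 42. The lowest of all was Iqca, a nexin-link gene, at a log2 fold change of -1.71 ± 0.24 (SE) on day 14 (adjusted p = 4.46e-09). Its 12 mice ran from 1.51 to 10.2 CPM with a median of 4.44 CPM, all below the CTRL mice, which ran from 13.3 to 20.5 CPM with a median of 17.6 CPM. The gene called higher on day 7 and day 14 was Nme7, a microtubule inner protein that is also part of the gamma-tubulin complex of other cells (log2 fold change 0.35 and 0.26, adjusted p = 0.000212 and 0.00215).

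Intraflagellar transport, which carries cargo along every cilium, including the single immotile cilium of other cell types, had smaller fold changes. Of 24 such genes, 15 were called lower and 1 higher on day 14 (29.9% and 32.4% of all genes were), with a median log2 fold change of -0.22 where the members had -1.06. Dync2h1, the heavy chain of the retrograde motor, had 30.9 to 55.3 CPM in CTRL mice with a median of 43.5 CPM and 19.8 to 46.5 CPM on day 14 with a median of 26.9 CPM (log2 fold change -0.65 ± 0.13 (SE), adjusted p = 2.42e-05). Kif3b, a subunit of the anterograde kinesin that also carries cargo outside cilia, was higher in all 12 mice (74.3 to 115 CPM, median 85.0 CPM) than in the CTRL mice (60.9 to 69.5 CPM, median 66.5 CPM), at a log2 fold change of 0.43 ± 0.06 (SE) with an adjusted p of 4.1e-08.

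The regulators that act before Foxj1 targets appear, when a cell commits to many cilia and multiplies its centrioles, were mixed on day 7. Of 11 tested, 5 were called higher on day 7 (24.8% of all genes were called higher), 3 were called lower (21.0% of all genes) and 3 were not called. On day 14 none were called higher and 5 lower, where 32.4% and 29.9% of all genes were. Mcidas, a geminin-family coactivator that starts the programme, ran from 0.32 to 1.68 CPM in CTRL mice with a median of 0.69 CPM and from 1.06 to 2.48 CPM on day 7 with a median of 1.65 CPM. Its log2 fold change was 1.07 ± 0.36 (SE) with an adjusted p of 0.0118. Ccno, a cyclin-like protein needed for centriole amplification, ran from 2.04 to 3.44 CPM in CTRL mice with a median of 2.49 CPM and from 2.75 to 8.12 CPM on day 7 with a median of 4.66 CPM (log2 fold change 0.93 ± 0.23 (SE), adjusted p = 0.000564). Deup1, the scaffold of the deuterosome on which new centrioles form, ran from 2.95 to 6.23 CPM in CTRL mice with a median of 4.59 CPM and from 3.83 to 9.70 CPM on day 7 with a median of 7.00 CPM (log2 fold change 0.59 ± 0.22 (SE), adjusted p = 0.0214). In each of these genes the groups overlapped and at least 9 of 10 mice on day 7 stood above the CTRL median.

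Foxn4, a forkhead factor of multiciliated cells, and Cdc20b, a deuterosome protein, were the other genes called higher on day 7, at log2 fold changes of 1.06 ± 0.39 (SE) (adjusted p = 0.0221) and 1.14 ± 0.45 (SE) (adjusted p = 0.0317). These levels are low. Counts per library on day 7 were 12 to 27 for Mcidas, 9 to 27 for Foxn4 and 5 to 23 for Cdc20b, and the call of Cdc20b was lost with no filter on low counts (adjusted p = 0.0701). Cdc20b, Mcidas and Ccno are neighbours on the same strand (GRCm38, chr13:112987802-113091195). All 5 genes were called lower on day 14 than on day 7, among 8 of the 11 regulators, when 7.55% of all genes were. Ccno changed by -1.20 ± 0.22 (SE) on the log2 scale between these days (adjusted p = 7.69e-05). The 5 genes are named because of these values, and were picked after they had been seen.

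Gmnc, the geminin-family factor above Mcidas, had a different pattern. It ran from 3.74 to 6.398 CPM in CTRL mice with a median of 5.15 CPM, from 1.85 to 7.04 CPM on day 7 with a median of 3.85 CPM, and from 0.17 to 3.15 CPM on day 14 with a median of 1.11 CPM, when it no longer overlapped CTRL (log2 fold change -1.76 ± 0.32 (SE), adjusted p = 2.19e-06). On day 42 it ran from 1.46 to 4.84 CPM with a median of 2.03 CPM and was called lower than CTRL (adjusted p = 0.0346). Myb, Trp73 and Rfx2, transcription factors that act early in the programme, were the 3 regulators called lower on day 7, at log2 fold changes of -0.63, -0.54 and -0.58. Myb and Trp73 were at -1.35 and -1.47 on day 14, with all mice below CTRL. On day 35 Gmnc (log2 fold change -0.88, adjusted p = 0.0217) and Rfx2 (-0.41, adjusted p = 0.00326) were called lower than CTRL. The other regulators were not called on that day, when 13.1% of all genes were called lower. E2f4 and E2f5, the partners of Mcidas, which many dividing and resting cells express, were not called on day 7 or day 14. The plot of 6 regulators by mouse shows these levels.

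**Figure D5:**
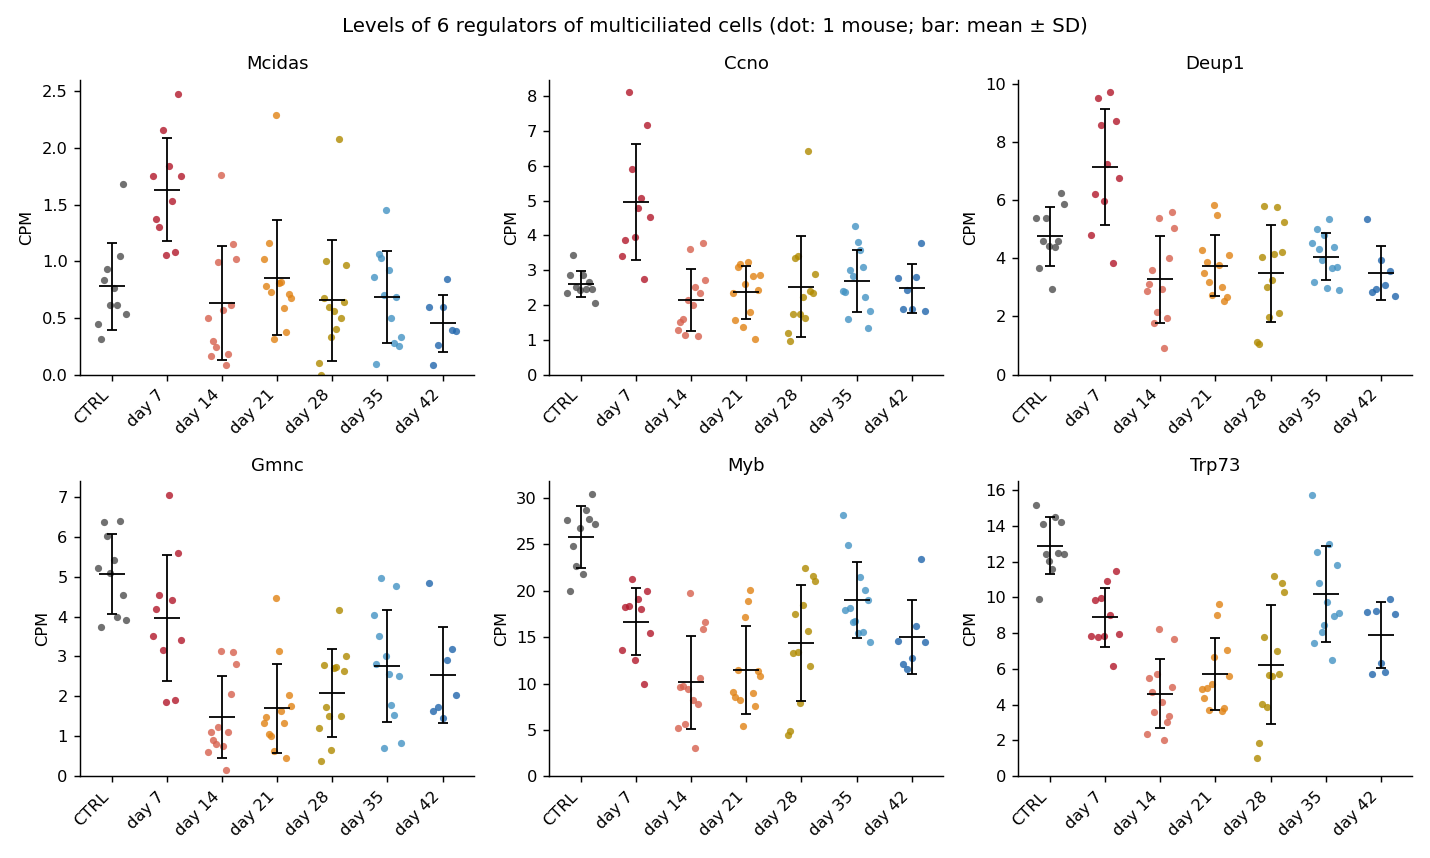
CPM (vertical axes, each from 0) of Mcidas, Ccno, Deup1, Gmnc, Myb and Trp73 in each mouse by group (horizontal axes), with 1 dot per mouse and bars for the mean ± SD. On day 7 the medians of Mcidas, Ccno and Deup1 are 1.65, 4.66 and 7.00 CPM, above those of CTRL at 0.69, 2.49 and 4.59 CPM, while the median of Gmnc is 3.85 CPM against 5.15 CPM.

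Markers of other cells moved over the same days. The summed level of 15 club and goblet cell markers, the secretory neighbours of ciliated cells, had a median of 33130 CPM in CTRL mice (26950 to 34770 CPM), 20160 CPM on day 7 (9871 to 25980 CPM), 9341 CPM on day 14 (4424 to 20270 CPM) and 19560 CPM on day 42 (16020 to 26080 CPM), and none of the 15 genes was at 0 throughout a group. On day 14, 8 of these 15 genes were called lower and 2 higher, where 29.9% of all genes were called lower and 32.4% higher. Most of the summed level in CTRL mice and on day 14 was that of 1 of the 15 genes, Scgb1a1, the secretoglobin that defines club cells. Its range was 17910 to 24460 CPM in CTRL mice, with a median of 22820 CPM. On day 14 Scgb1a1 ran from 1947 to 14180 CPM, with a median of 6364 CPM. The sum of 10 general epithelial markers was 1759 to 2098 CPM in CTRL mice and 1511 to 2176 CPM on day 14, with medians of 1922 and 1870 CPM. For 10 markers of alveolar type 2 cells the summed median was 25930 CPM in CTRL mice and 13750 CPM on day 14. For 10 markers of alveolar type 1 cells it was 9312 CPM in CTRL mice and 7642 CPM on day 14.

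Airway basal cell markers, 7 genes of which 6 were tested, had a summed median of 3.78 CPM in CTRL mice, 4.36 CPM on day 14, 16.7 CPM on day 35 and 11.8 CPM on day 42. Krt5, their keratin, was at 0 to 1 counts in every CTRL library and reached 227 counts in a library on day 35. The sum of 11 general leukocyte markers had medians of 769 CPM in CTRL mice, 1019 CPM on day 7, 1318 CPM on day 14 and 1186 CPM on day 42, and the ranges of day 14 (1100 to 1777 CPM) and CTRL (636 to 906 CPM) did not overlap. The part of these cell types in the member levels was not tested. Genes of sperm, the other motile axoneme of a male mouse, reached at most 5 summed counts over 8 genes in any library.

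Promoters were read for the members because they moved together and because RFX and forkhead factors are known to bind the promoters of such genes. RefSeq windows (GRCm38.p6) from 250 bases before to 50 bases after the start site were present for 30 of the 37 members, and Foxj1, Rsph1, Rsph4a, Cfap54, Dnaaf1, Tppp3 and Map3k19 had none. The half-site GTTGCC of the X-box, the motif of RFX factors, stood in windows of 15 of the 30 members on either strand, compared with 2510 of 17492 protein-coding genes (14.3%). The full X-box, here GTTNCC and GGNAAC set apart by 2 bases, with N for any base, stood in 1 of 30 members, Pifo, and in 0.497% of all genes, and its arms can hold the half-site. The forkhead motif TGTTTAC stood in 3 of 30 members, Cfap43, Ak7 and Mlf1 (10.0%), and in 3.45% of all genes. These letters are a description of the windows, chosen with the expression results known and not tested, and not a measure of binding.

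The 250 bases before the start site are shown for Pifo, a ciliary protein and the member with the full X-box. They are shown for Hydin, the axonemal member with the largest fall on day 14. They are also shown for Tekt1, a doublet filament protein with a pair of half-sites, and for Cfap43, which has the forkhead motif and no half-site. Pifo and Tekt1 each have a further start site whose window holds none of these motifs, and a gene was counted where any of its windows held one. Capitals mark the motif on either strand.
Pifo, chr3:106001498-106001747, minus strand, X-box beginning at position -20 from the start site: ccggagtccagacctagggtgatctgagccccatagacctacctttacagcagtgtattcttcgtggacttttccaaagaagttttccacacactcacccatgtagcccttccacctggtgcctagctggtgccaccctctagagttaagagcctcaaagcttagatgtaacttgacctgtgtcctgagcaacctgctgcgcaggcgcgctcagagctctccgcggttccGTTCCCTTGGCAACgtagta
Hydin, chr8:110266727-110266976, plus strand, half-site beginning at position -13: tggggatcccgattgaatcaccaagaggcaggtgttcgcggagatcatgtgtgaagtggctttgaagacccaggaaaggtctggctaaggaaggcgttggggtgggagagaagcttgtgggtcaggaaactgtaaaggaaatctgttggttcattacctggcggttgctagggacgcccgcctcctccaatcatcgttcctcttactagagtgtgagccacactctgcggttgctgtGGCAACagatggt
Tekt1, chr11:72361883-72362132, minus strand, half-sites on both strands: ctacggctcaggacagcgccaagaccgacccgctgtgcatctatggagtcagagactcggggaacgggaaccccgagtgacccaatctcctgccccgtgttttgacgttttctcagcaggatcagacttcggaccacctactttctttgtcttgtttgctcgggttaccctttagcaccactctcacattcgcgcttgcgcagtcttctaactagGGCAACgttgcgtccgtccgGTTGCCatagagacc
Cfap43, chr19:47837362-47837611, minus strand, forkhead motif beginning at position -55: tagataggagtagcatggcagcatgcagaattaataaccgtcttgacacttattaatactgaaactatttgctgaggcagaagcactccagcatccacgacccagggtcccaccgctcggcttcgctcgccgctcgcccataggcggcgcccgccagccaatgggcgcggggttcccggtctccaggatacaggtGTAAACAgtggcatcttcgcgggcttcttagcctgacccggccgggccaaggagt
All of these 4 genes were called lower on days 14, 21 and 28. Pifo had log2 fold changes of -0.10 on day 7 (adjusted p = 0.734) and -0.85 ± 0.21 (SE) on day 14 (adjusted p = 0.000344), where Hydin had -0.83 and -1.54. Members with and without a motif in these windows were not compared by a test.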

How the data were processed

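RNA was measured in the right inferior lobe of 75 mice, 1 library per mouse. The authors prepared stranded poly-A libraries, sequenced them single-end, aligned reads with STAR 2.7.0f to GRCm38 with Ensembl release 96, and deposited raw counts per gene without normalization. The counting program, its strand setting and its handling of multiply mapped reads are not given in the sources used here, so members that share exon bases with genes on the opposite strand (Ccdc39 with Ttc14, Spag17 with Wdr3, Dnaaf1 with Taf1c, Dnah11 with Cdca7l and Dnah2 with Dnah2os above all) are uncertain to that extent. All columns were used, and no entry lacked a gene identifier.

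From the counts, genes were kept by filterByExpr, scaled by TMM and tested in R 4.3.3 with edgeR 4.0.16 (quasi-likelihood F test, glmQLFit and glmQLFTest), with 7 group means over all 75 mice. p-values were two-sided and adjusted by the Benjamini-Hochberg method over 16221 genes at a threshold of 0.05. The study's methods used DESeq2, which was run as an alternative (1.42.0). Day 14 against day 7 and day 42 against day 14 were planned in the same fit, and day 35 against day 28 and day 42 against day 35 were added later. SE is that of the log2 fold change, derived as its absolute value divided by the square root of the F statistic, and SD is between mice. Mice are numbered within a group as in the sample names. Nothing in the labels names litters or cages, so p-values measure the spread between these mice. No 2 libraries of a group agreed within counting noise (lowest chi-square per degree of freedom 3.88 over 375 pairs). Intervals and floors are not given, since all members had counts in every library.

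Per-sample values were given for Foxj1, Rfx3, the member of each role with the highest mean CPM, and the called members with the largest increase or decrease on each day, and for list genes with the largest called increase or decrease. Cfap52 on day 7, Mlf1, Zmynd10 in the comparison of days 7 and 14, Pifo, the other regulators, the marker genes and the members named in counts came outside that rule. The members and gene lists were chosen with earlier results of these data known. Alternatives were DESeq2, total counts or upper quartile factors as scaling, 2 other filters, fits of just the groups in a comparison, a block for the replicate number, a minimum absolute log2 fold change of 0.5, and each of the 75 libraries left out in turn. On counts simulated from these libraries with 200 genes changed by a log2 fold change of 1, the fit recovered 86% of them for day 14 against CTRL among 15716 genes tested and 82% for day 42 against CTRL among 15724. All other values were drawn from the CTRL means, and far more genes were called in the data (4856 lower on day 14). These shares hold for the simulated setting only. Tables and plots were made in Python 3.11.15 with pandas 2.3.3, numpy 2.4.6 and matplotlib 3.10.9.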

Additional observations from a re-analysis of the deposited data

Results flagged for a closer look

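Among 111 sets of 1 member in 1 group of up to 10 mice (CTRL, day 7 and day 42), 4 held a mouse that stood apart from the rest by Dixon's criterion, which chance gives in about 1 in 20 sets. Rfx3 had 8.61 CPM in mouse 3 of day 7, where the other mice had 13.3 to 18 CPM, and 17.4 CPM in mouse 1 of day 42, where the others had 12.8 to 14.5 CPM. Ccdc39 had 34.1 CPM in mouse 9 of day 7, where the others had 17.7 to 25.7 CPM. Tppp3 had 165 CPM in mouse 7 of day 42, where the others had 243 to 301 CPM.

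The change against CTRL differed between days, by a direct comparison of the days, for 24 members between days 14 and 7, for 4 members between days 42 and 14 and for 9 members between days 35 and 28. The last count fell to 0 without mice 1 and 2 of day 28, which were picked by their low member levels.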

How the results depend on the processing

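The counts of called members on days 14, 21 and 28 stayed within 1.5 times the reported count under all alternatives, including each of the mice left out. Fits of only the groups compared moved the counts to 24 on day 7, 8 on day 35 and 36 on day 42, and to 0 for day 35 against day 28. The shares of all genes called in these fits are not given here. With no filter on low counts, 2 members were called for day 42 against day 14 and 2 for day 35 against day 28. The latter count was also 16 with DESeq2, 3 with total counts as the only scaling, 1 with at least 10 counts in every library and 0 without mice 1 and 2 of day 28. Leaving out 1 mouse at a time gave 0 to 1 called members for day 35 against CTRL, 2 to 10 for day 42 against day 14 and 0 to 26 for day 35 against day 28. Day 42 against day 35 gave 0 in all of these. The replicate number as a block gave 14, 36, 37, 36, 3 and 22 called members on days 7 to 42 against CTRL, 31 for day 14 against day 7, 7 for day 42 against day 14 and 11 for day 35 against day 28. The labels do not say that a number marks shared cages or days. Deviations of same-numbered mice from their group means had r between -0.406 and 0.415 over the 10 comparisons, with medians between -0.0258 and 0.149. At most 2 pairs in any comparison correlated best with their own number. The deposited library names run in the order of the replicate numbers, and whether a batch follows that order was not tested. Of the 590 log2 fold changes of single genes that were recomputed, 562 kept direction and call, 14 lost the call, 10 gained it and 4 changed sign, all of the last for Mlf1, which was not called. Mlf1 on day 7 was at -0.0092 with DESeq2, -0.0154 with at least 10 counts in every library and -0.0013 with only the groups compared, and on day 35 at -0.0182 with the replicate block. The cause of these shifts was not tested. Depth limits the low regulators more than the members, and the 7 mice of day 42 gave the largest standard errors.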
